A study of Mus musculus with 12 samples.

Results

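The genes described here are 10 mouse genes of glucose transport and glycolysis: the transporters Slc2a1 and Slc2a4, the hexokinases Hk1 and Hk2, the muscle phosphofructokinase Pfkm, the bifunctional enzymes Pfkfb1 and Pfkfb2, the aldolase Aldoa and the lactate dehydrogenases Ldha and Ldhb. They were chosen by symbol, with no measured value in the rule, but with earlier results of these data known. The symbols matched 11 of the 55401 rows of the count table, because Aldoa has a second row. All 10 genes were among the 16213 tested. The second Aldoa row held 4 to 14 counts per library and was not tested.

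RNA was sequenced in bulk from hearts of wild-type mice of the inbred strain C57BL/6J, in 12 libraries, with 3 in each of 4 groups. Exercised females and exercised males were put on a treadmill for 45 min daily at a speed of 1 km/h, with 5 running days in each of 6 weeks. Sedentary females and sedentary males of matched age lived in their cages over that time and did not run. All 4 groups share genotype and strain, no agent is named for any, and their age is not given in the sources used here. The labels do not say in words that each library is 1 animal. It is taken as such, and p-values measure the spread between libraries.

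Glucose enters cardiomyocytes through facilitative transporters. GLUT4, the product of Slc2a4, moves to the cell surface after insulin or contraction, and GLUT1, the product of Slc2a1, sits there without that stimulus. Hexokinase traps glucose as glucose-6-phosphate, phosphofructokinase commits it to glycolysis, aldolase splits the sugar, and lactate dehydrogenase exchanges pyruvate and lactate. The adult heart burns mainly fatty acids and takes up lactate as well as glucose. Its enzymes are often muscle or heart forms of a gene family.

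The promoters of 2 isozyme pairs, Ldha with Ldhb and Hk2 with Hk1, are shown because the ratio within each pair is compared between groups further on, and because several glycolytic genes are textbook targets of hypoxia-inducible factor, whose response element has the core ACGTG or GCGTG. The 250 bases before an annotated start come from RefSeq (GRCm38.p6), 5′ to 3′ on the strand of the gene, and capitals mark ACGTG on either strand, so that CACGT is the same word on the other strand. Where a gene has several starts, the window with the most matches is shown. Ldha lies at chr7:46845554-46845803 (plus strand), Ldhb at chr6:142507958-142508207 (minus), Hk2 at chr6:82774455-82774704 (minus) and Hk1 at chr10:62340422-62340671 (minus).
Ldha: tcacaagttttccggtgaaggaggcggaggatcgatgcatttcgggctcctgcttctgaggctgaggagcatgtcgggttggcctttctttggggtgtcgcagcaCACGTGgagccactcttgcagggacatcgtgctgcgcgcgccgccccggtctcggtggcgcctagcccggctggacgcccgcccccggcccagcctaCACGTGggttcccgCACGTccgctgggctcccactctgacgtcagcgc
Ldhb: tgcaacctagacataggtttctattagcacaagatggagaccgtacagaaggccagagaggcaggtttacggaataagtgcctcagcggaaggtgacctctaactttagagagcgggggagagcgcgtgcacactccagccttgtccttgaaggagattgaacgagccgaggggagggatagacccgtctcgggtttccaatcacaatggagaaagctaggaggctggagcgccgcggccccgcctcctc
Hk2: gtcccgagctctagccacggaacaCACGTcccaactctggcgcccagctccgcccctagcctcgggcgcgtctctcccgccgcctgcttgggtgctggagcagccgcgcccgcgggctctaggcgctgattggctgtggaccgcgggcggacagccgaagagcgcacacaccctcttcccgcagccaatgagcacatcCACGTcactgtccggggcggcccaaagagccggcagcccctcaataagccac
Hk1: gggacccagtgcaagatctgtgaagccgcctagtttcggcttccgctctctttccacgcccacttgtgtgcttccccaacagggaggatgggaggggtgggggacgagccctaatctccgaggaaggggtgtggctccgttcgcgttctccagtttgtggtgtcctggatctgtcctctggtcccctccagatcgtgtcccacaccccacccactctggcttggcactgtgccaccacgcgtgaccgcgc
The Ldha window held 5 matches of ACGTG, counting both strands, of which 4 lay in 2 copies of the palindrome CACGTG. The Hk2 window held 2 matches, and the windows of Ldhb and Hk1 held 0. Of 32851 RefSeq windows of this length, 16.6% held ACGTG at least once, 6.81% held 2 or more matches and 0.134% held 5 or more. GCGTG occurred in 28.2% of them and CACGTG in 6.02%. Among 21 windows of the member genes, which cover 9 of the 10 genes, 9 windows and 6 genes held ACGTG. A gene was counted where any of its windows held the word. The shares over RefSeq are per window, with none chosen by its matches, whereas the windows shown were chosen by them. The matches in the windows shown are therefore not tested against those shares. In the same 21 windows GCGTG was found in 9, with 3 matches in the Hk1 window shown and 1 in the Ldhb window. A match is a run of letters in this window, not a bound site, and no binding was measured here.

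The 10 genes lie on 8 chromosomes of GRCm38: Slc2a1 at chr4:119108711-119137983, Slc2a4 at chr11:69942539-69948188, Hk1 at chr10:62268855-62379908, Hk2 at chr6:82725025-82774454, Pfkm at chr15:98092589-98132451, Pfkfb1 at chrX:150588229-150643878, Pfkfb2 at chr1:130689182-130729253, Aldoa at chr7:126795234-126800751, Ldha at chr7:46841475-46855627 and Ldhb at chr6:142490249-142507957. Each value is a sum over all exons of a gene, so that isoforms are not separated. Exons of Pfkfb2 share 1262 bases with those of Gm29427 on the same strand, and those of Pfkm share 341 bases with Gm26513. Both neighbours held few counts, 237 and 47 over all libraries, but how the authors assigned shared reads is not given in the sources used here. The counts of a neighbour therefore do not show how many reads were shared. Among overlaps on the other strand, exons of Pfkfb2 share 154 bases with those of Yod1, which held 1359 counts.

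Before the groups are compared, the level of each gene in these hearts is given per exon length, as RPKM, reads scaled to library size and to a kilobase of exon, over all 12 libraries. Per exon length Ldhb, the heart form of lactate dehydrogenase, led at 936 ± 56.0 RPKM (SD, n = 12). Aldoa, the muscle aldolase, was next at 887 ± 45.1 RPKM. The ranges of this pair overlapped, and Ldhb was above Aldoa in 11 of 12 libraries. Pfkm followed at 408 ± 25.3 RPKM, then Ldha, the muscle form of lactate dehydrogenase, at 212 ± 10.9 RPKM. Slc2a4 stood at 109 ± 5.98 RPKM, Hk2 at 59.5 ± 6.72 RPKM and Hk1 at 23.2 ± 2.08 RPKM. From Aldoa down to Pfkfb2, no neighbouring ranges in this order overlapped. Pfkfb2 and Slc2a1 could not be told apart at 8.13 ± 2.03 and 7.83 ± 1.71 RPKM, with Pfkfb2 above Slc2a1 in 4 of 12 libraries. Pfkfb1 was lowest at 2.13 ± 0.57 RPKM. Of 16195 tested genes with a length, 99.8% were below Ldhb and 43.3% below Pfkfb1. Each length covers the annotated exons of a gene, 1570 bases from 4 transcripts for Ldhb and 2911 bases from 12 for Aldoa. Which transcripts these hearts carry was not tested, so the order rests on these lengths. In CPM, counts scaled to library size alone, Aldoa was above Ldhb, with means of 2581 and 1470 over the 12 libraries.

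**Figure D1:**
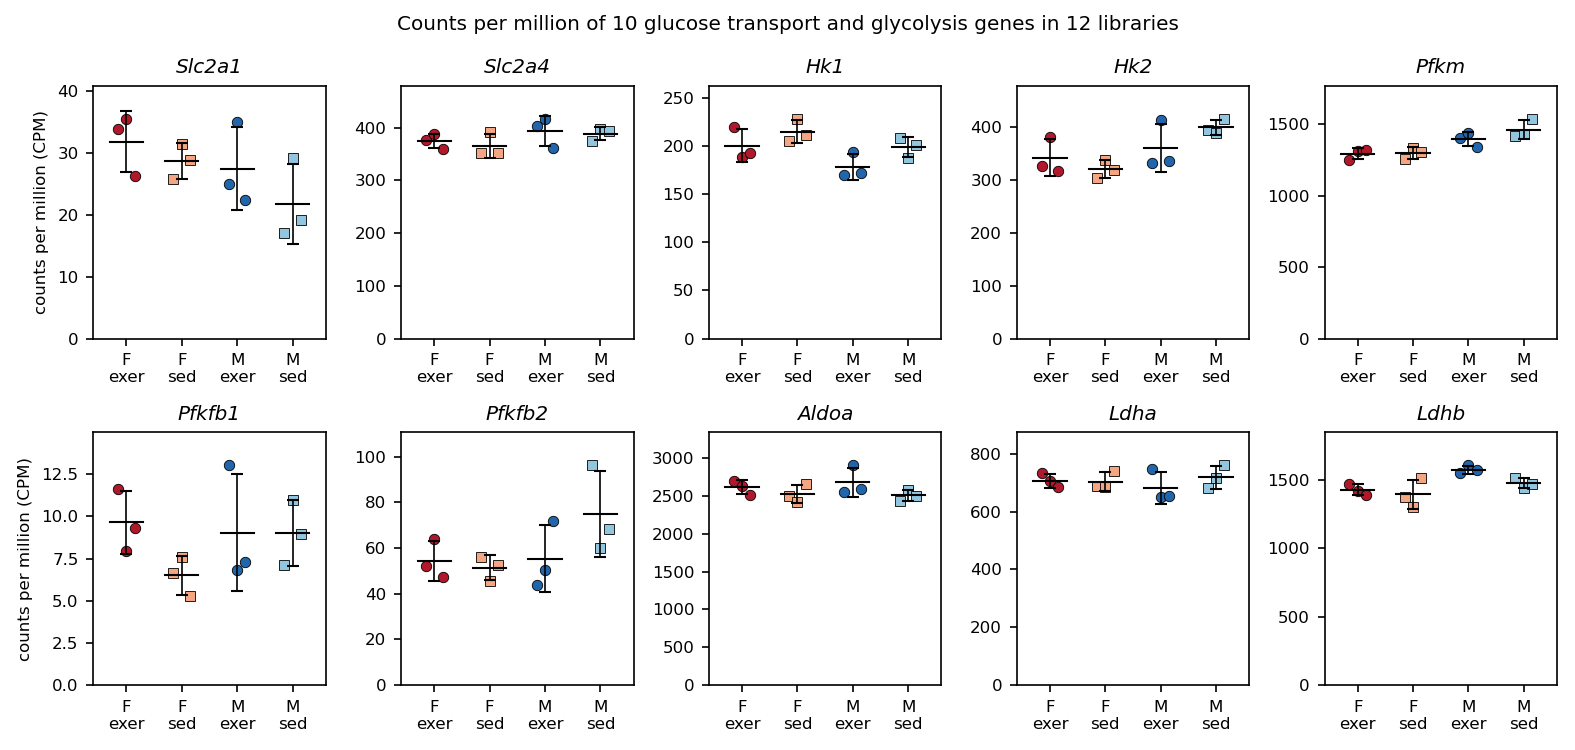
Level of each of the 10 genes in each of the 12 libraries, in CPM (counts scaled to library size) on an axis from 0 for each gene, with points for libraries, horizontal lines for the mean of the 3 libraries of a group and bars for its SD. Sedentary male hearts lie above sedentary female hearts for Hk2, Pfkm and Pfkfb2, and exercised females lie above sedentary females for Pfkfb1.

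In 4 families of the pathway 1 gene led in these hearts, to a differing degree. As a share of its family per exon length, Pfkm made up 92.2% of the phosphofructokinases. Slc2a4 held 87.8% of 5 glucose transporters, and Slc2a1 held 6.26%, ahead of Slc2a8, an intracellular transporter, at 4.15%. Ldhb held 80.6% and Ldha 18.3% of the lactate dehydrogenases. Among enzymes that set the level of fructose-2,6-bisphosphate, the activator of phosphofructokinase, Pfkfb2, the heart form, held 60.9%, Pfkfb3 16.7%, Pfkfb1, the liver and skeletal muscle form, 16.3% and Pfkfb4 6.12%. The families were put together after the data were seen and the shares are a description. The size of each share rests on the annotated exon lengths, as the order of levels does.

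**Figure D2:**
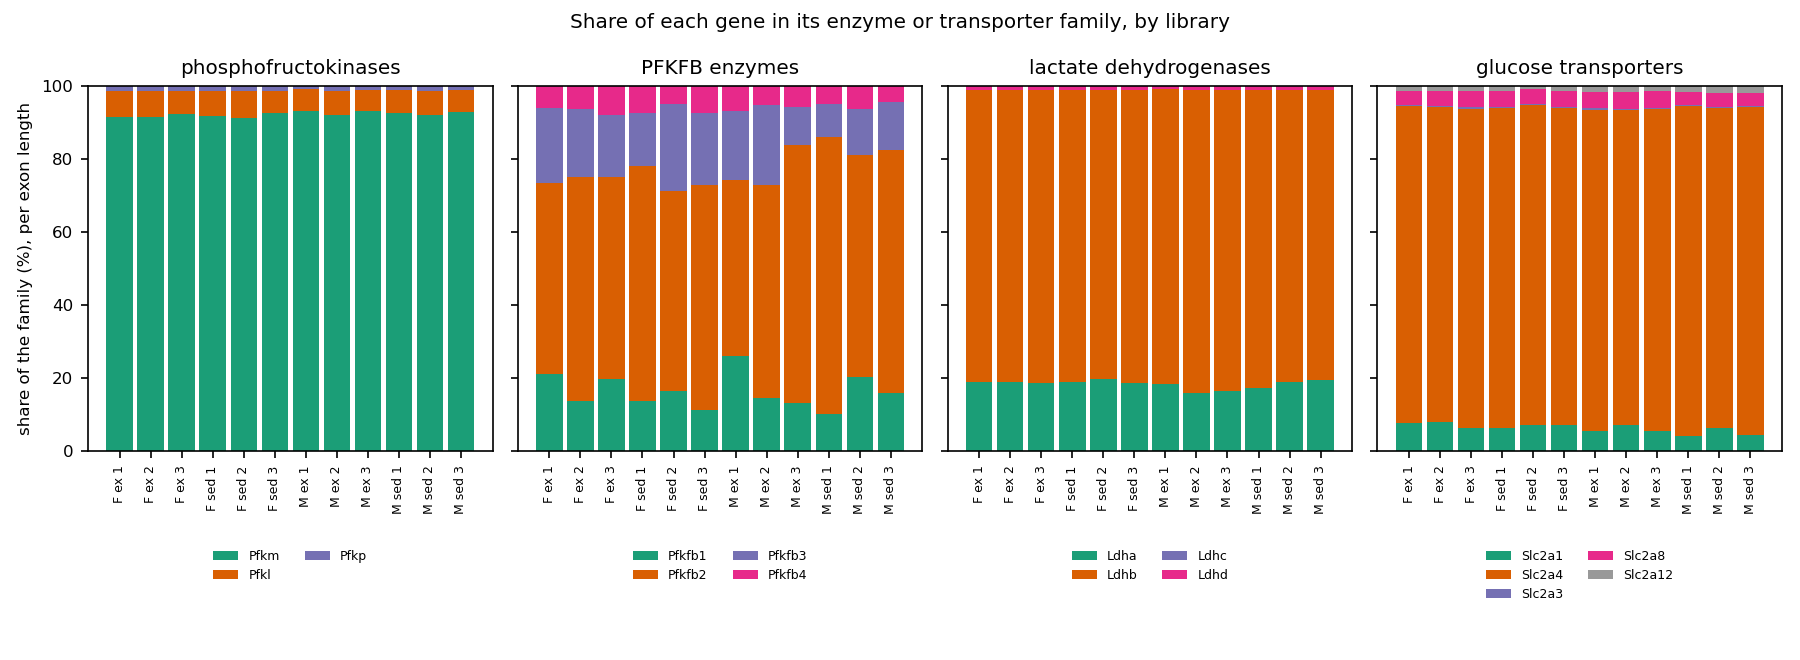
Share of each gene in its family, in percent of the summed level per exon length, as stacked bars for each of the 12 libraries. Slc2a4, Pfkm and Ldhb make up most of their families in every library, while the PFKFB enzymes shift most between libraries, with Pfkfb2 between 48.2% and 76.0%.

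Total counts ran from 22204349 to 32566240 per library, and over all genes the SE of a difference of 3 against 3 libraries had a median of 0.14 on the log2 scale. The labelled tissue carried its markers: the summed level of 5 cardiomyocyte genes was 47852 to 56282 CPM over the libraries, with none at 0. Skeletal muscle markers summed to no more than 3.12 CPM. The atrial genes Myl7, Sln and Myl4 were high in female exercised 2, female sedentary 1 and female sedentary 2. Myl7 was at 107, 65.6 and 23.0 CPM there and at no more than 2.33 CPM elsewhere. Nppa, a further atrial marker, was highest in female sedentary 3, at 249 CPM. The 9 libraries with few atrial transcripts, used further on, are those low in Myl7, Sln and Myl4. The 5 erythroid markers, haemoglobin genes and Alas2, summed to 3630 and 1747 CPM in female sedentary 1 and 2, and to no more than 293 CPM elsewhere. Fat cell markers reached 86.3 CPM in female exercised 2 and no more than 11.2 CPM in the others. In bulk RNA, fewer cells of a type and less RNA per cell cannot be told apart.

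The first question was whether running changed these genes. None of them passed the test: the count was 0 of 10 in females and 0 of 10 in males at an adjusted p of 0.05 (edgeR, Benjamini-Hochberg over all genes tested), where the share of all genes called was 0% in each sex. At an unadjusted p under 0.05 the count was 1 of 10 in females, against 3.93% of all genes, and 0 of 10 in males, against 7.84%. DESeq2 called 1 gene of all in females and 25 in males, none of them among these 10. In females 8 of the 10 genes lay above 0, with a median log2 difference of 0.04 against 0.00028 over all genes tested, and in males 5 lay above 0, with a median of -0.03 against 0.00068. The 95% interval of the fold lay within 1.5-fold of no change for 8 of 10 genes in each sex, and within 1.2-fold for 5 of 10 in each.

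The transporters come first. In CPM, counts scaled to library size, Slc2a4 stood at 377, 388 and 360.3 in exercised females, 353, 391 and 353 in sedentary females, 403, 417 and 362 in exercised males and 376, 397 and 394 in sedentary males. The 4 groups overlapped, and the highest library was 1.18 times the lowest. The log2 difference with exercise was 0.04 ± 0.07 (SE) in females and 0.02 ± 0.07 in males, and the fold intervals were 0.926 to 1.14 and 0.914 to 1.12. Slc2a1 ran at 33.8, 35.5 and 26.2 CPM in exercised females, 25.8, 31.5 and 28.9 CPM in sedentary females, 25.0, 35.0 and 22.4 CPM in exercised males and 17.1, 29.1 and 19.2 CPM in sedentary males. Sedentary males had both of the lowest libraries, yet their second library lay inside the range of every other group. Its log2 difference was 0.15 ± 0.21 in females and 0.33 ± 0.22 in males, and its male fold interval, 0.902 to 1.76, allows a rise as well as no change.

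The hexokinases differed little in their spread, with a coefficient of variation over the 12 libraries of 8.97% for Hk1 and 11.3% for Hk2. Hk1 was at 219.6, 189 and 193 CPM in exercised females, 205, 228 and 211 CPM in sedentary females, 169, 194 and 172 CPM in exercised males and 209, 188 and 201 CPM in sedentary males. Exercised libraries were on average lower in both sexes, but the ranges overlapped in each. The log2 difference was -0.10 ± 0.08 in females and -0.16 ± 0.08 in males. Averaged over the sexes it was -0.13 ± 0.06, with an unadjusted p of 0.036 and an adjusted p of 0.782 (edgeR). Hk2 was at 327, 381 and 317 CPM in exercised females, 304, 338 and 318 CPM in sedentary females, 332, 413 and 336 CPM in exercised males and 394, 389 and 415 CPM in sedentary males. In males 2 of 3 exercised libraries lay below all sedentary ones, and in females the ranges overlapped. The log2 difference was 0.09 ± 0.09 in females and -0.15 ± 0.09 in males.

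Phosphofructokinase varied little between libraries, and its regulators varied most of the 10 genes: over the 12 libraries the coefficient of variation was 6.2% for Pfkm, 25.0% for Pfkfb2 and 26.9% for Pfkfb1. Pfkm was at 1251, 1314 and 1319 CPM in exercised females, 1254, 1333 and 1308 CPM in sedentary females, 1402, 1439.7 and 1343 CPM in exercised males and 1419, 1429 and 1537 CPM in sedentary males. Exercised and sedentary libraries overlapped in both sexes, and the log2 difference was -0.0042 ± 0.06 in females and -0.07 ± 0.06 in males. Pfkfb2 was at 52.0, 64.0 and 47.2 CPM in exercised females, 56.2, 45.5 and 52.4 CPM in sedentary females, 43.6, 50.2 and 71.7 CPM in exercised males and 96.1, 60.1 and 68.3 CPM in sedentary males. In males 1 exercised library lay above 2 sedentary ones, and the log2 difference of -0.44 ± 0.22 had an adjusted p of 0.638 (edgeR). In females it was 0.08 ± 0.22.

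Pfkfb1 was the 1 member with an unadjusted p under 0.05 for exercise in females. It stood at 11.6, 7.96 and 9.34 CPM in exercised females, 6.63, 7.58 and 5.30 CPM in sedentary females, 13.0, 6.80 and 7.28 CPM in exercised males and 7.13, 11.0 and 8.93 CPM in sedentary males. The female groups did not overlap, with the lowest exercised library just above the highest sedentary one, whereas the male groups overlapped. Of all genes tested, 9.79% had no overlap between exercised and sedentary females. The log2 difference in females was 0.56 ± 0.25, 1.48-fold with an interval of 1.01 to 2.17, at an unadjusted p of 0.047 and an adjusted p of 1 (edgeR). In males it was 0.01 ± 0.25. Pfkfb1 rested on 120 to 324 counts per library, the fewest of the 10 genes, and its exons overlap those of Apex2 on the other strand by 123 bases.

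Aldolase and lactate dehydrogenase stood near the top of the heart's transcripts, and their groups lay close together. Aldoa was at 2693, 2637 and 2518 CPM in exercised females, 2499, 2417 and 2653 CPM in sedentary females, 2549.7, 2903 and 2585 CPM in exercised males and 2437, 2577 and 2504 CPM in sedentary males. The groups overlapped in each sex. The log2 difference was 0.05 ± 0.06 in females and 0.10 ± 0.06 in males. Ldha was at 732, 706 and 683 CPM in exercised females, 688, 683 and 739.9 CPM in sedentary females, 745, 649 and 652 CPM in exercised males and 680.2, 717 and 759 CPM in sedentary males. These overlapped too, with differences of 0.01 ± 0.07 and -0.08 ± 0.07.

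Ldhb was at 1472, 1422 and 1391 CPM in exercised females, 1375, 1305 and 1512 CPM in sedentary females, 1550.1, 1607 and 1570.4 CPM in exercised males and 1516, 1440.5 and 1475 CPM in sedentary males. All 3 exercised males lay above all 3 sedentary males, as 12.3% of all genes did in 1 direction or the other, while the female groups overlapped. The male difference was small, 0.09 ± 0.06 on the log2 scale or 1.07-fold (interval 0.974 to 1.17), with an adjusted p of 0.712 (edgeR). In females it was 0.03 ± 0.06. Its male exercise difference and its sex difference among exercised hearts share the exercised male libraries.

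**Figure D3:**
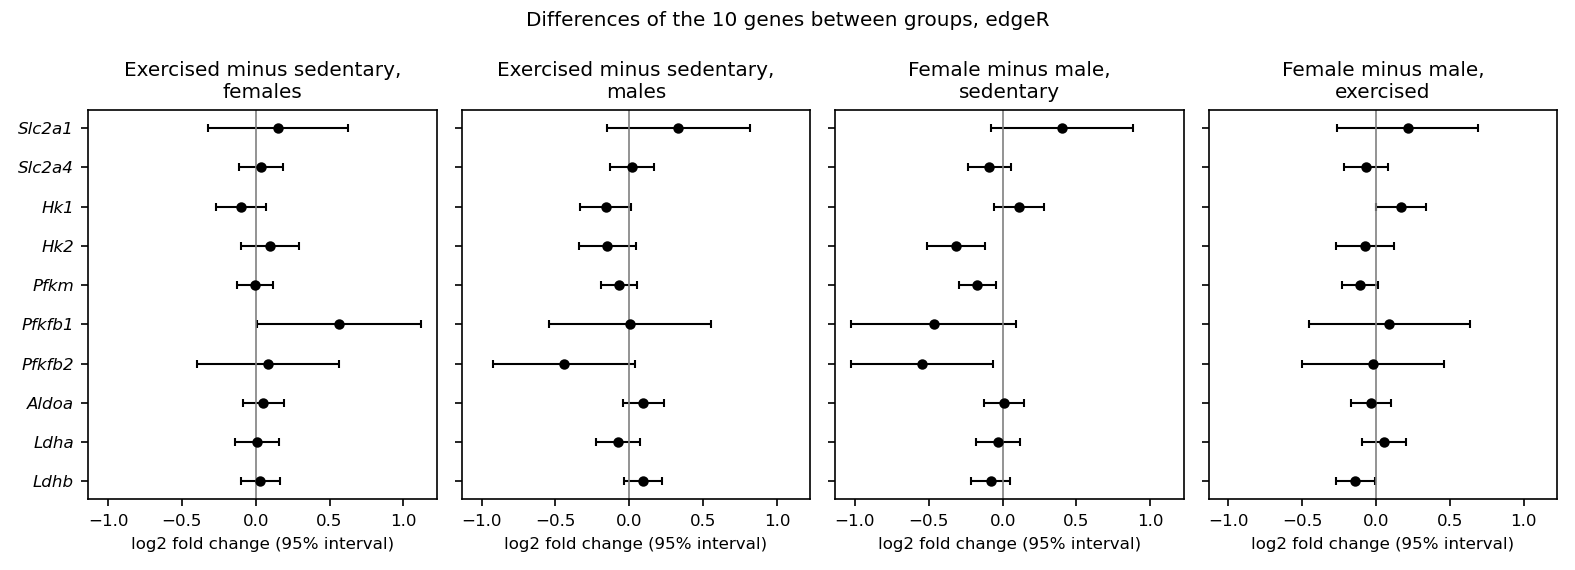
Log2 difference of each of the 10 genes for exercise in each sex and for females minus males in each condition, with points for the estimate and bars for its 95% interval, and a line at 0. Intervals are wide for Slc2a1, Pfkfb1 and Pfkfb2 and narrow for the other 7 genes. Those of Hk2, Pfkm and Pfkfb2 lie below 0 for females against males in sedentary hearts.

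Whether the sexes answered exercise differently was tested by the difference between both effects. Of the 10 genes 0 passed, against 0% of all genes, and DESeq2 called 10 genes of all, none of them a member. Hk2 had the smallest unadjusted p, 0.083: its log2 difference of the female and male effects was 0.24 ± 0.13, adjusted p = 0.93 (edgeR). The differences of Pfkfb1, 0.56 ± 0.36, and Pfkfb2, 0.52 ± 0.31, were larger in size and less precise. For 7 of 10 genes the interval lay within 1.5-fold. The exercise effect averaged over both sexes called 0 of 10 genes (0% of all), with 5 above 0 and an interval within 1.2-fold for 7 of 10.

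Females and males were then compared within each condition. Among sedentary hearts, Hk2, Pfkm and Pfkfb2 had lower levels in all 3 females than in all 3 males, but 0 of 10 genes passed the adjusted test, where 2.21% of all genes did. A lack of overlap between these groups was seen for 25% of all genes, and an unadjusted p under 0.05 for 18.4%, so that 3 of 10 is near the first of these shares. The levels given above put Hk2 at 320 ± 17.1 CPM in sedentary females and 399 ± 13.9 CPM in sedentary males (SD, n = 3 each). The log2 difference was -0.32 ± 0.09, 0.802-fold with an interval of 0.7 to 0.919, and the adjusted p was 0.087 (edgeR). Pfkm was at 1298 ± 40.4 and 1462 ± 65.5 CPM, a log2 difference of -0.17 ± 0.06 with an adjusted p of 0.135 (edgeR). Pfkfb2 was at 51.4 ± 5.43 and 74.8 ± 18.9 CPM, -0.54 ± 0.22, adjusted p = 0.219 (edgeR), and its highest male library, at 96.1 CPM, lay well above the other 2.

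The other 7 genes showed no separation among sedentary hearts. Slc2a1 differed by 0.40 ± 0.22, Pfkfb1 by -0.47 ± 0.26, Hk1 by 0.11 ± 0.08, Slc2a4 by -0.09 ± 0.07 and Ldhb by -0.08 ± 0.06 on the log2 scale, females minus males. Aldoa and Ldha were at 0.01 ± 0.06 and -0.03 ± 0.07. Over the 10 genes 7 were below 0, with a median of -0.08 against 0.01 over all genes tested. With DESeq2, Hk2 (adjusted p = 0.031) and Pfkm (adjusted p = 0.037) passed, among 866 calls over all genes, where edgeR made 358. DESeq2 filters genes in its own way, and the share of all genes that it called was not computed. When male exercised 2 was left out of the edgeR fit, Hk2 passed with an adjusted p of 0.038. That library is in neither sedentary group, and the fit without it called 462 genes of all, against 358 with all 12 libraries.

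Cardiomyocyte, atrial and erythroid markers were also compared between the same sedentary groups, and none of those tested passed. All 5 cardiomyocyte markers lay below 0 in females, with a median of -0.16: Ryr2, the calcium release channel, at -0.39 ± 0.10 and Tnnt2, cardiac troponin T, at -0.25 ± 0.07, none past the threshold. Their summed level was 47852 to 50232 CPM in sedentary females and 51229 to 56282 CPM in sedentary males. The 5 atrial markers summed to 251 to 387 CPM against 54.1 to 136 CPM, most of it Nppa in both groups and with Bmp10, Sln or both at 0 in each library, and the 5 erythroid markers to 34.6 to 3630 CPM against 8.26 to 43.6 CPM. With the atrial markers as a covariate, Hk2, Pfkm and Pfkfb2 did not pass, and 78 genes of all were called, against 358 without it. Beyond that fit, the part of these markers in the differences of Hk2, Pfkm and Pfkfb2 was not tested. In the 9 libraries with few atrial transcripts, where sedentary females are a single library assumed to vary like the others, the log2 difference was -0.33 ± 0.13 for Hk2, -0.16 ± 0.10 for Pfkm and -0.52 ± 0.34 for Pfkfb2.

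Among exercised hearts, 0 of 10 genes passed for sex, where 0.16% of all genes did, and 2 of 10 had groups without overlap, where 14.3% did. Pfkm was lower in all 3 females, as it was among sedentary hearts, with 1294 ± 37.9 against 1395 ± 48.5 CPM and a log2 difference of -0.11 ± 0.06. Ldhb was lower in all 3 females, with 1428 ± 40.8 against 1576 ± 28.9 CPM, a log2 difference of -0.14 ± 0.06 and an adjusted p of 0.459 (edgeR). Hk2 differed by -0.08 ± 0.09 and Pfkfb2 by -0.02 ± 0.22, with overlapping groups. Hk1 stood at 0.17 ± 0.08, and its groups overlapped through 1 male library at 194 CPM, above 2 of the 3 female libraries.

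The size of a ratio rests on the annotated exon lengths, which are the same for every library. Ratios of related genes within a library do not depend on how libraries are scaled. They were taken per exon length for 4 pairs, and exercise and sex were each tested by exact two-sided permutation within the other factor, with 400 assignments and a smallest possible p of 0.005. None of the 8 tests passed after Benjamini-Hochberg adjustment. The ratio of Hk2 to Hk1 was 2.13, 2.89 and 2.35 in exercised females, 2.12, 2.12 and 2.16 in sedentary females, 2.81, 3.05 and 2.8 in exercised males and 2.7, 2.96 and 2.95 in sedentary males. All 3 sedentary females and 2 of 3 exercised females lay below every male library. Female exercised 2, at 2.89, was the exception. It is one of the libraries where atrial genes were high, and the others, female sedentary 1 and 2, were both at 2.12. The sex difference was 0.793-fold in females relative to males (log2 -0.34, exact permutation p = 0.015, adjusted p = 0.12). For exercise it was 1.07-fold (exact permutation p = 0.215).

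**Figure D4:**
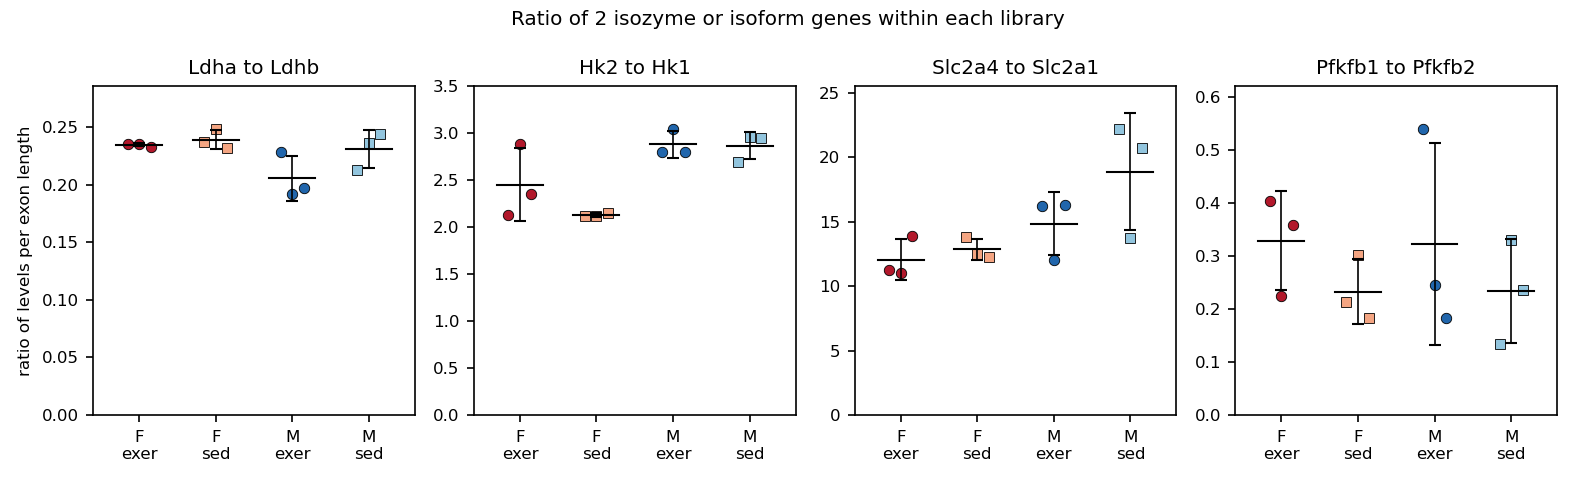
Ratio of the levels per exon length of 4 pairs of related genes in each library, on axes from 0, with points for libraries, horizontal lines for group means and bars for the SD of 3 libraries. Hk2 to Hk1 lies lowest in sedentary females (2.13 ± 0.02) and higher in both male groups (2.88 ± 0.14 and 2.87 ± 0.15), and Ldha to Ldhb lies near 0.23 in 3 groups.

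The ratio of the insulin-responsive to the basal transporter, Slc2a4 to Slc2a1, was 12.03 ± 1.59 in exercised and 12.9 ± 0.81 in sedentary females, 14.8 ± 2.46 in exercised and 18.9 ± 4.52 in sedentary males (SD, n = 3 each). Sedentary males held the 2 highest libraries, at 22.2 and 20.7, but their second library, at 13.7, lay within the female range. The sex difference was 0.752-fold (exact permutation p = 0.03, adjusted p = 0.12) and the exercise difference 0.86-fold (exact permutation p = 0.175). Ldha to Ldhb was 0.235 ± 0.0016 and 0.239 ± 0.0084 in exercised and sedentary females, 0.206 ± 0.02 and 0.231 ± 0.016 in exercised and sedentary males. Its exercise difference was 0.934-fold (exact permutation p = 0.115, adjusted p = 0.23) and its sex difference 1.09-fold (exact permutation p = 0.06, adjusted p = 0.16). Pfkfb1 to Pfkfb2 ran from 0.134 to 0.539 over the libraries, with an exercise difference of 1.36-fold (exact permutation p = 0.2, adjusted p = 0.246) and a sex difference of 1.07-fold (exact permutation p = 0.765).

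The rest of the pathway was read from lists of genes outside the 10. For exercise, 0 genes of these lists passed in either sex. Of 26 other glycolysis enzymes 22 were tested: 16 lay above 0 in females (median 0.03) and 12 in males (median 0.01). Of 7 lactate and pyruvate transport genes 6 lay above 0 in females (median 0.10) and 5 in males (median 0.14), next to all-gene medians of 0.00028 and 0.00068. Bsg, the chaperone that carries lactate transporters to the membrane, had a mean of 1464 ± 45.2 CPM in females that ran and 1323 ± 41.1 CPM in females that did not, and of 1409 ± 99.6 and 1250 ± 33.5 CPM in males (SD, n = 3). Its exercised libraries lay above its sedentary ones in both sexes, and the difference averaged over the sexes was 0.16 ± 0.04, adjusted p = 0.782 (edgeR). A lack of overlap in 1 direction or the other was seen for 9.79% of all genes in females and 12.3% in males. The share of genes apart in both sexes in the same direction was not computed. Bsg is named here because it had the smallest p of its list. Slc2a8 differed in males by 0.32 ± 0.09, adjusted p = 0.588 (edgeR), and by -0.0035 ± 0.09 in females.

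Among the 23 genes of insulin signalling and GLUT4 traffic, which set how much of the Slc2a4 product reaches the surface, 12 lay above 0 for exercise in each sex, with medians of 0.0014 and 0.0054. Among 16 regulators of glucose gene transcription 10 lay above 0 in females and 9 in males. Of 12 targets of hypoxia-inducible factor outside glycolysis, 6 lay above 0 in females (median -0.03) and 4 in males (median -0.11). Of 7 other glucose transporters tested, 3 lay above 0 in each sex.

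For sex among sedentary hearts, Prkaa2 passed among the 16 regulators of glucose gene transcription. It encodes the catalytic alpha subunit of AMP-activated kinase in muscle, a sensor of energy stress that acts on GLUT4 and on the product of Pfkfb2. Its level was 98.6 ± 2.04 CPM in females and 122 ± 7.87 CPM in males (SD, n = 3 each), a log2 difference of -0.31 ± 0.07 with an adjusted p of 0.046 (edgeR). The groups did not overlap, as was so for 25% of all genes. The call ended in 13 of 22 other settings, among them the 9 libraries with few atrial transcripts (adjusted p = 0.315, edgeR), with the direction the same in all 22. With 1 library left out, it passed only without female exercised 1 or male exercised 1 or 2, with adjusted p values (edgeR) of up to 0.197.

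The lists of other glucose transporters, lactate and pyruvate transport, insulin signalling and GLUT4 traffic, and hypoxia-inducible factor targets gave 0 calls for sex in the edgeR fit of all 12 libraries. Of the 12 hypoxia-inducible factor targets 9 lay below 0 in sedentary females (median -0.20), with Egln3, a prolyl hydroxylase of that factor, at -0.50 ± 0.13 and an adjusted p of 0.071 (edgeR). Egln3 passed in 4 of 22 other settings: with DESeq2 (adjusted p = 0.010), with only the groups compared (adjusted p = 0.026, edgeR), and without male exercised 1 (adjusted p = 0.033, edgeR) or male exercised 2 (adjusted p = 0.017, edgeR). Of the 16 transcription regulators, Prkaa2 included, 13 lay below 0 (median -0.13). Slc2a12, a further muscle transporter, was at -0.64 ± 0.18 and Slc16a7, a monocarboxylate transporter, at 0.75 ± 0.22, with adjusted p values of 0.078 and 0.097 (edgeR). Of 22 other settings each passed in 1, DESeq2, with adjusted p values of 0.022 and 0.029. Pik3ca, the catalytic subunit of the insulin-activated lipid kinase, was at -0.25 ± 0.08. In exercised hearts Stx4a, the surface syntaxin on which GLUT4 vesicles dock, was at 0.19 ± 0.06 and Adm, adrenomedullin, at -0.45 ± 0.16 in females against males, with adjusted p values of 0.297 and 0.333 (edgeR).

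The genes whose level ran most like each member over the 12 libraries were taken as the highest Pearson r of log2 CPM among 13618 other protein-coding genes. They are a description of these libraries, which share sex, exercise, depth and tissue content. The highest r of so many genes over 12 libraries is high through the search itself, and none was tested. Pfkm ran with Hdlbp (r = 0.958) and Tollip (r = 0.948), and Slc2a1 with Ap5s1 (r = 0.95) and Car11 (r = 0.933). Hk2 ran with Kdm2a (r = 0.938), Pfkfb2 with Golga1 (r = 0.932), Ldhb with Uqcrb, a subunit of respiratory complex III (r = 0.915), and Slc2a4 with Fhod3, a sarcomere formin (r = 0.91), and Ogdh, of the citric acid cycle (r = 0.905). The best matches of Pfkfb1 (Rassf4, r = 0.895), Hk1 (Tspyl2, r = 0.894), Aldoa (Fam83h, r = 0.878) and Ldha (G0s2, r = 0.86) were lower. The other members were left out of this search.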

How the data were processed

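Per the submitters' processing notes, the authors trimmed reads with Trimmomatic 0.36, aligned them with STAR 2.5.2b to GRCm38 and counted reads per gene with featureCounts of Subread 1.5.2. The deposited values are these raw counts, not normalized. For the annotation release and the strand setting, which were not given in the sources used here, nothing was assumed, and genes that overlap others are uncertain. Symbols, coordinates and exon lengths come from GENCODE M21, in which 55141 of 55401 rows have a symbol. The 37 rows of the mitochondrial genome held 27.3% of the counts of female sedentary 2 and 0 in the other libraries. Without them the highest total was 26607844 counts. Libraries of 1 group differed by more than sampling noise (chi-square per degree of freedom 9.13 to 33.2 over the pairs), so none was treated as a copy of another. This does not show that they come from separate animals.

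Counts were analysed in R 4.3.3 with edgeR 4.0.16: the filterByExpr filter, scaling by the trimmed mean of M-values, a group-means model over the 12 libraries (8 residual degrees of freedom), and the quasi-likelihood test with robust spread and Benjamini-Hochberg adjustment over 16213 genes at 0.05. The procedure was tested on simulated data. Ratios were log2 values with an offset of 0.01 CPM. Intervals are 95% and come from the model's spread between libraries.

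All 10 members are named whatever their result. From each further list, genes that passed in a contrast are named, and otherwise the 2 of smallest p. Some genes are not reported here. The members and lists were chosen with earlier results of these data known. Alternatives were RLE and upper quartile scaling, no filter, CPM above 1 in 3 libraries, DESeq2 1.42.0, voom of limma 3.58.1 with sample weights, no robust spread, an adjusted p of 0.1, only the groups compared, the 9 libraries with few atrial transcripts, atrial markers as a covariate, an offset of 0.5 CPM for ratios, and each library left out in turn.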

Additional observations from a re-analysis of the deposited data

How the results depend on the processing

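No paired analysis was possible because the labels give each library a number of its own, so groups share none. Of 1294 log2 differences of members under alternatives, 39 reversed and 3 crossed the threshold. At an adjusted p of 0.1, 1 member passed for sex among sedentary hearts (Hk2), and DESeq2 called 2. With each library left out this count was 0 to 1.

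In the 9 libraries with few atrial transcripts, the log2 difference for exercise in females became -0.079 for Pfkfb2, -0.025 for Aldoa, -0.064 for Ldha and -0.078 for Ldhb, and for sex among sedentary hearts 0.040 for Ldha and 0.032 for Ldhb. With voom, Pfkfb2 was at 0.0027 for sex among exercised hearts.

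Leaving out 1 library at a time gave these ranges. For exercise in females they were -0.032 to 0.017 for Pfkm, -0.052 to 0.17 for Pfkfb2, -0.022 to 0.044 for Ldha and -0.016 to 0.092 for Ldhb. For exercise in males they were -0.025 to 0.073 for Slc2a4 and -0.36 to 0.18 for Pfkfb1, the lowest without male exercised 1. For the difference between the sexes in the exercise effect they were -0.45 to 0.024 for Slc2a1, -0.038 to 0.070 for Slc2a4, -0.012 to 0.12 for Hk1 and -0.079 to 0.016 for Aldoa. For sex among sedentary hearts they were -0.027 to 0.039 for Aldoa and -0.070 to 0.012 for Ldha. For sex among exercised hearts they were -0.16 to 0.034 for Hk2, -0.076 to 0.45 for Pfkfb1, -0.16 to 0.22 for Pfkfb2 and -0.067 to 0.028 for Aldoa. The log2 ratio of Hk2 to Hk1 for sex ran from -0.40 to -0.29, with an adjusted exact permutation p of 0.04 without female exercised 2, and that of Pfkfb1 to Pfkfb2 from -0.078 to 0.32. The cause was not tested.

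Calls over all genes moved more. For sex among sedentary hearts there were 358, against 866 with DESeq2, 816 at an adjusted p of 0.1, 14 in the 9 libraries, 78 with the atrial covariate and 68 to 462 with a library left out. For sex among exercised hearts there were 26, against 167 with DESeq2, 41 at 0.1, 43 without a filter, 15 with only the groups compared and 17 to 55 with a library left out. DESeq2 called 14 genes for the averaged exercise effect, against 0. The settings were applied to listed genes outside the members after the data were seen.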
